A study of Mus musculus with 18 samples.

Results

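The messenger RNA of 10 genes that build the cytoplasmic side of focal adhesions was compared across the groups of the series, library by library. The genes are the talins Tln1 and Tln2, the adaptors Pxn (paxillin), Bcar1 (p130Cas) and Vasp, the focal adhesion kinase Ptk2, the kindlin Fermt2, and Ilk, Parva and Lims1, which encode the proteins of the ILK-PINCH-parvin complex. They were taken by gene symbol from the 22019 rows of the expression table, in which each symbol had 1 row, and all 10 passed the filter on low values that 16021 rows passed. The rows were picked by symbol and not by a measured value, but the list itself was chosen with earlier results of these data known.

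The cells were NIH 3T3 mouse fibroblasts of the TetON 3G line, transduced with retrovirus and selected with puromycin, with no cloning step in the methods. SUN1L cells expressed SS-HA-SUN1L-KDEL, the lumenal domain of SUN1 held in the endoplasmic reticulum, which uncouples the LINC complex that joins the cytoskeleton to the nucleus. KDEL cells expressed SS-GFP-KDEL as the control and had in addition been enriched by fluorescence sorting, a step that the methods give for KDEL cells alone, so the sort and the construct cannot be told apart. All cells grew for 48 hr with 1 μg/ml doxycycline on fibronectin-coated polyacrylamide gels of 1 kPa (soft) or 308 kPa (stiff). There were 3 libraries each of KDEL cells on 1 kPa (libraries 4, 16 and 28), SUN1L cells on 1 kPa (3, 15 and 27), KDEL cells on 308 kPa (8, 20 and 32) and SUN1L cells on 308 kPa (7, 19 and 31). On 308 kPa, KDEL cells were also given 25 μM Y27 (Y27632, an inhibitor of the kinase ROCK; libraries 12, 24 and 36) or 10 μM blebbistatin (an inhibitor of non-muscle myosin II; libraries 10 and 22), again for 48 hr. The study's methods call the 3 libraries of a condition biological replicates.

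Focal adhesions link integrins, which bind fibronectin outside the cell, to actin filaments inside it. Talin and kindlin bind the integrin tail and activate it, talin is stretched under actomyosin force and recruits vinculin, and the ILK-PINCH-parvin complex forms a further bridge to actin. Focal adhesion kinase, paxillin and p130Cas carry the adhesion signal onward, p130Cas being phosphorylated when it is extended, and VASP promotes the growth of actin filaments at adhesions.

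Some libraries stood apart before any group was compared. Library 34 is labelled as carrying an empty vector, with Y27 in one label and blebbistatin in another, and its only matching column is numbered 35; it was kept out of the groups. Libraries 3, 7 and 8, from 3 different groups, had a summed signal of 6739 to 10247 over 10 genes of dividing cells (Mki67, Top2a, Ccnb1 and others), against 46943 to 81642 in the other 15 libraries. The signal of Sun1, which the construct raises, was 38452 to 82617 in SUN1L libraries and 2785 to 3799 in the others, as labelled. The fibroblast markers Col1a1 (at least 32648) and Vim (at least 41866) were high in every library. Of the epithelial list, Epcam was at the lowest value of the table in 17 of the 18 libraries, Krt5 in 15 and Cldn4 in 14, while Cdh1 (88.0 to 311) and Krt14 (up to 872) had signal in each. Of the list for macrophages and blood cells, Emr1 was at the lowest value in 16, Ptprc and Itgam in 6, and Cd68 and Csf1r in none. Of the endothelial list, Kdr was at the lowest value in 9 libraries and Tek, at 72.3 to 3928, in none. The epithelial sum was 371 to 1165 with Y27 and 227 to 526 in the other groups. The endothelial sum was 1065 to 3979 with Y27, 639 to 1539 with blebbistatin and 334 to 1140 in the untreated groups. The sum for macrophages and blood cells was 77.5 to 542, against 550774 to 891299 for the fibroblast list, and the part of these cell types in the results was not tested. The sums of signal were 29583296 to 34880352 per library, from an estimated 12670000 to 19460000 read pairs.

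Fermt2 and Tln1 were the members with an unadjusted p under 0.05 in a comparison of the main limma fit, and their promoters are shown for that reason. Both are RefSeq sequences of the GRCm38.p6 assembly, on the minus strand, from 250 bases before to 50 bases after the start of the transcript. They lie at chr14:45530016-45530315 and chr4:43562534-43562833. Capitals mark GC boxes (GGGCGG or CCGCCC) and the CArG box, which is the motif of serum response factor; both strands were read and no match of one motif overlaps the other.
Fermt2 promoter: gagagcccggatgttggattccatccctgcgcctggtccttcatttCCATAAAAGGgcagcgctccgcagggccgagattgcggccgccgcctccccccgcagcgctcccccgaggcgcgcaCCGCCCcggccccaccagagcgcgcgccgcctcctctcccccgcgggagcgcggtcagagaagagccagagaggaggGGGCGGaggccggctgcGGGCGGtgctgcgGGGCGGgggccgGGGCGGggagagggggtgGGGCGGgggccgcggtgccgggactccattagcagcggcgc
Tln1 promoter: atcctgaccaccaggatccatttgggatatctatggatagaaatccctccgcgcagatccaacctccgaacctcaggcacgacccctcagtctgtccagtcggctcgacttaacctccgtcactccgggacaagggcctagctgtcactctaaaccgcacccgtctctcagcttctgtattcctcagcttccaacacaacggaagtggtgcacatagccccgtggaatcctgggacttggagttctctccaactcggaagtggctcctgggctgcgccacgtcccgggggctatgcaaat
The window of Fermt2 held 6 GC boxes and a CArG box, while the window of Tln1 held none of either. Of 32851 promoter windows of the same length, 35.7% held a GC box and 1.63% a CArG box. RefSeq windows were at hand for 6 of the 10 members. A match describes letters only and was not set against binding data.

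Per kilobase of exon, 7 members lay close together and Pxn, Tln2 and Ilk lay below them. Over the 17 libraries of the 6 groups the median signal per kb was 1264 for Bcar1, 1021 for Tln1, 978 for Vasp, 943 for Parva, 907 for Fermt2, 819 for Lims1 and 731 for Ptk2. Pxn had 442, Tln2 305 and Ilk 27.1. The divisor was the union of all annotated exons, 8195 bases for Pxn and 12511 for Tln2, and the transcripts in use were not determined. Undivided, the median signal was 3623 for Pxn and 3821 for Tln2, against 3740 for Ptk2 and 2384 for Vasp. The ranges of Pxn (316 to 507) and Tln2 (253 to 367) overlapped, and both lay under the lowest value of Ptk2, 632. From Bcar1 down to Ptk2 the ranges of neighbours in this order overlapped, so the order of neighbours there does not exceed the spread between libraries. The highest value of Ilk, 37.4 per kb, was far under the lowest value of Tln2, 253 per kb.

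**Figure D1:**
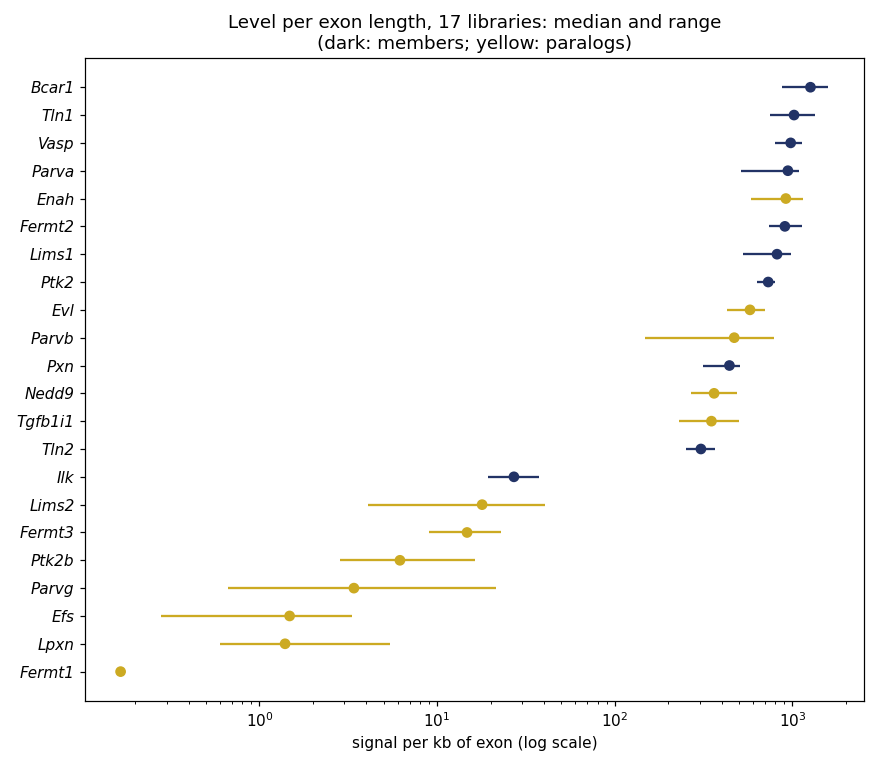
Signal per kilobase of exon on a log axis for the 10 members (dark) and 12 paralogs (yellow) over 17 libraries, with the median as a point and the range as a line. Bcar1 is highest with a median of 1264, Ilk lies at 27.1, and the medians of the paralogs Lims2, Fermt3, Ptk2b, Parvg, Efs, Lpxn and Fermt1 lie below that of Ilk.

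The low level of Ilk went together with an unusual locus. Ilk lies at chr7:105736592-105742925 on the plus strand, and 2461 of its 2744 exonic bases (89.7%) are also exons of Rrp8 or Taf10, both on the minus strand. Taf10 had a median signal of 3803 and Rrp8 of 1437, against 74.3 for Ilk, which corresponds to 23.1 to 52.7 read pairs per library. Only 0.378% of 15617 tested genes with known exons share as large a part of them. The 76 tested genes that share at least 80% of their exonic bases had a median of 59.7 signal per kb (quartiles 14.2 and 200.5). The 14022 that share under 5% had 160 (quartiles 5.75 and 533.6), so the spreads of the sets overlapped widely. How reads in shared exons were assigned is not given in the sources used here, and the part of the overlap in the level of Ilk was not tested. Tln1, at chr4:43531519-43562691, shares 360 bases (3.67%) with Creb3, and the other 8 members share none.

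Paralogs of several members were expressed beside them. Tln1 exceeded Tln2 per kb, and the ratio of their signals had a median between 2.24 and 3.05 in every group. Among the relatives of VASP, Enah had 918 signal per kb and Evl 577; Parvb, the second parvin, had 470. Nedd9, a relative of p130Cas, had 362 and Tgfb1i1 (Hic-5), a relative of paxillin, had 350. Fermt1, a kindlin of epithelia, was at the lowest value in all 18 libraries, and Fermt3, the kindlin of blood cells, had 14.7 per kb.

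Across all groups the members varied little, and no member was called in any comparison. The test was limma on log2(signal + 1). A call needed a difference of 2-fold or more and a p under 0.05 after Benjamini-Hochberg adjustment, and for the interaction of SUN1L and rigidity a p under 0.05 after Bonferroni correction. In 70 values, from 10 members in 7 comparisons, 2 had an unadjusted p under 0.05 and the smallest adjusted p from limma was 0.854. The unadjusted 95% interval lay within 2-fold in both directions for 66 of the 70 and within 1.5-fold for 45. The exceptions at 2-fold were Parva for SUN1L on 1 kPa, Ilk for rigidity in KDEL cells, and both genes for the interaction. With the runs of library numbers as a block in limma, more members had an unadjusted p under 0.05. They were 3 of 10 for SUN1L on 1 kPa, 3 for rigidity in KDEL cells and 2 for rigidity in SUN1L cells. SUN1L on 308 kPa and blebbistatin had 1 each, and Y27 and the interaction 0. The number of all genes under 0.05 rose in each comparison too. The SD of log2 signal over 17 libraries had a median of 0.21 among members and 0.31 among all tested genes. The latter include genes of low signal, whose log2 values spread more, and the sets were not matched by level. Signal in a bulk library cannot tell fewer cells that express a gene from less RNA per cell.

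**Figure D2:**
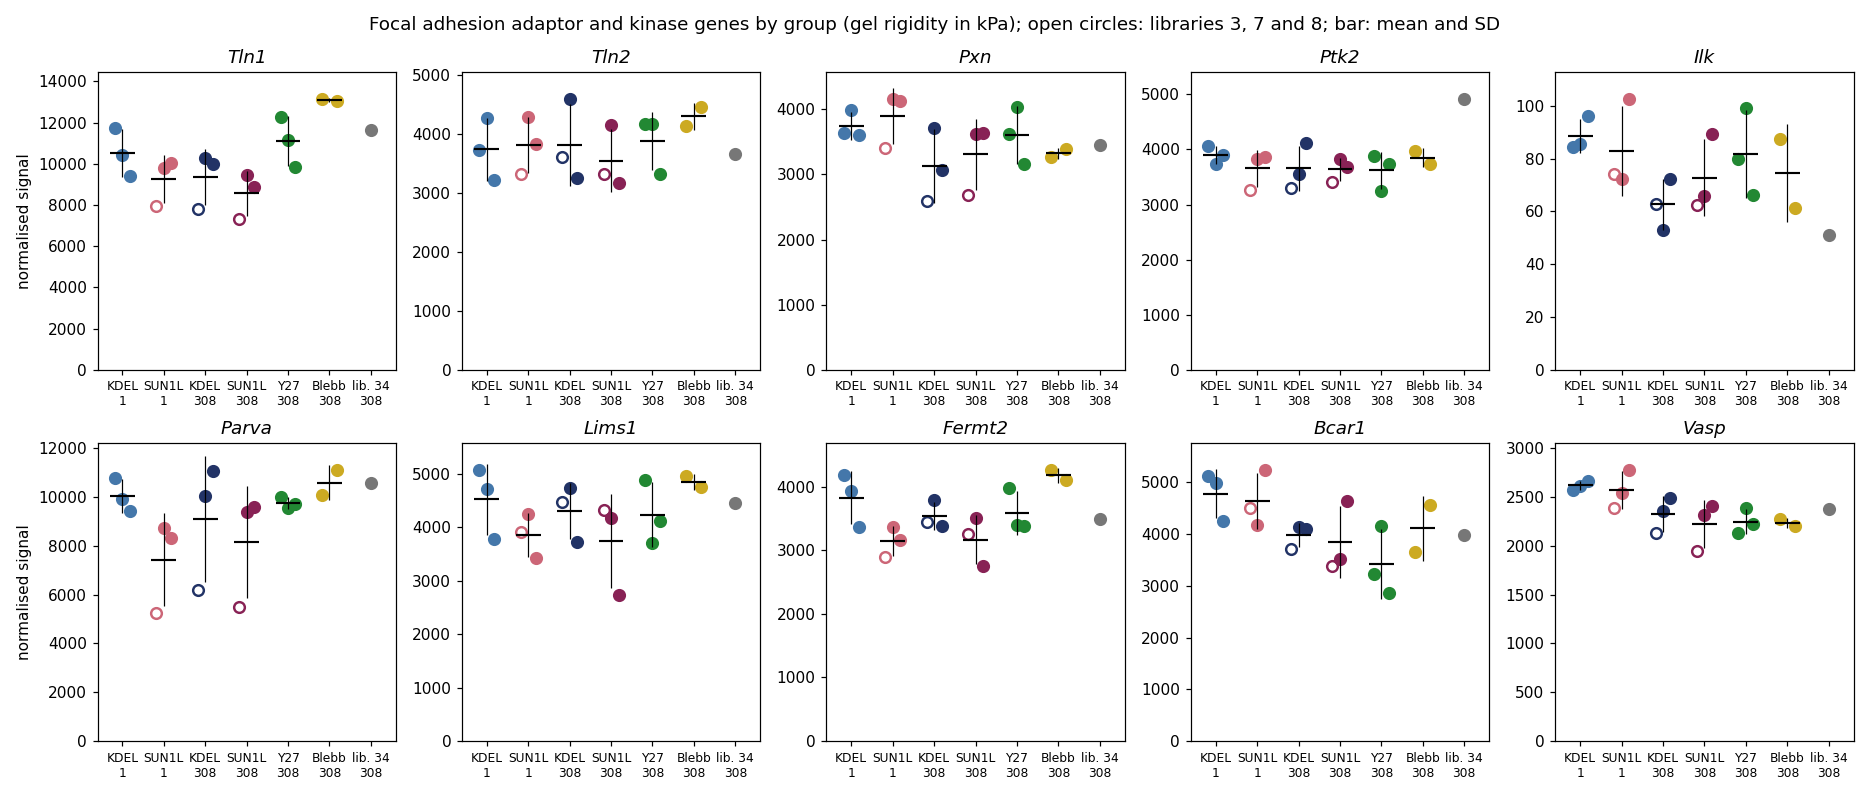
Normalised signal of each member (y axis from 0) in the 18 libraries by group, with gel rigidity in kPa on the x axis, the mean as a bar and the SD as a line; open circles are libraries 3, 7 and 8, and library 34 is shown alone. Parva and Tln1 are lowest in the open circles, and the 2 blebbistatin libraries of Tln1 (13023 and 13143) lie above the other libraries.

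On soft gels the question was whether SUN1L alters these genes. Fermt2 and Parva, which act at the integrin tail and in its bridge to actin, were lower in each SUN1L library than in any KDEL library. Neither difference passed the adjusted threshold. Fermt2 was 4179, 3934 and 3368 in KDEL cells on 1 kPa and 2892, 3366 and 3166 in SUN1L cells. The ranges just fail to touch, at 3368 and 3366. The log2 fold change was -0.28 (SE 0.12), the unadjusted p from limma 0.0456 and the adjusted p 0.930. Parva was 10783, 9920 and 9418 in KDEL cells and 5236, 8725 and 8333 in SUN1L cells. The lowest SUN1L value is library 3, and without libraries 3, 7 and 8 the log2 fold change of Parva went from -0.47 (SE 0.28) to -0.23 (SE 0.10; unadjusted p 0.0479 and adjusted p 1 in limma). Without these libraries, that of Fermt2 was -0.22 (unadjusted p in limma 0.151).

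Of the other members on soft gels, Lims1 had a log2 fold change of -0.22 and Tln1 of -0.19, and the remaining 6 lay between -0.11 and 0.05. In all, 0 of 10 members were called in this comparison, where 0.0874% of all tested genes were. A single member had an unadjusted p under 0.05, against 4.54% of all genes, and 2 members had groups that do not overlap, against 14.5%. The median log2 fold change was -0.10 over members, -0.10 over 62 other focal adhesion genes and -0.01 over all tested genes. Without libraries 3, 7 and 8, or without library 3 alone, the member median was -0.03. With the runs of library numbers as a block, 3 members had an unadjusted p under 0.05 (Fermt2 0.0138, Parva 0.0322 and Lims1 0.0421), but so had 14.1% of all genes, and the smallest adjusted p of a member in that limma fit was 0.311.

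On stiff gels the groups of SUN1L and KDEL libraries overlapped for every member. Within each of the 3 runs of library numbers, 6 of the 10 members (Lims1, Fermt2, Tln1, Vasp, Parva and Tln2) were lower in SUN1L than in KDEL cells, as were 16.05% of all tested genes, and none was higher in all 3 runs (10.04% of all tested genes). The same tally for SUN1L on 1 kPa gave 3 members lower (20.97% of all tested genes) and 0 higher (16.2%). For 308 against 1 kPa it gave 4 lower (10.6%) and 0 higher (10.07%) in KDEL cells. In SUN1L cells it gave 6 lower (16.02%) and 1 higher (13.08%). With Y27, 0 were lower (11.3%) and 1 higher (13.96%), and with blebbistatin, over 2 runs, 0 lower (22.8%) and 6 higher (27.3%). For SUN1L on 308 kPa, Lims1, the PINCH adaptor of the ILK complex, had the most negative log2 fold change at -0.22 (SE 0.19), and Ilk the most positive at 0.20 (SE 0.25). Lims1 was 4479, 4731 and 3718 in KDEL cells and 4322, 4179 and 2733 in SUN1L cells. Ptk2, the kinase, differed by less than 0.01 on the log2 scale (fold 1.00, 95% interval 0.840 to 1.19). No member was called (background 0.0624%), none had an unadjusted p under 0.05 in limma (background 2.53%) and none had groups that do not overlap (background 4.29%). The median was -0.09 over members, -0.05 over 62 other focal adhesion genes and -0.03 over all tested genes. With the block on runs, Lims1 alone had an unadjusted p under 0.05 (0.0418; background 5.92%; adjusted p in limma 0.831 or more for each member).

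The second question was rigidity, and in KDEL cells 9 of the 10 members had a lower mean log2 signal on 308 than on 1 kPa. So had 8386 of the 16021 tested genes and 45 of 62 other focal adhesion genes. Ilk, Bcar1 and Vasp had groups that do not overlap, all lower on the stiff gel. Ilk was 84.3, 85.6 and 96.1 on 1 kPa and 62.8, 53.1 and 72.3 on 308 kPa, a log2 fold change of -0.50 (SE 0.25). Bcar1 was 5119, 4979 and 4249 on 1 kPa and 3705, 4129 and 4106 on 308 kPa, a log2 fold change of -0.26 (SE 0.14). Vasp was 2574, 2612 and 2667 on 1 kPa and 2128, 2358 and 2495 on 308 kPa, a log2 fold change of -0.17 (SE 0.11). The levels on 308 kPa were 0.706, 0.834 and 0.887 times those on 1 kPa, and the adjusted p from limma was 1 for each. The 3 members with groups that do not overlap stand against 4.78% of all genes. No member was called (background 0%) or had an unadjusted p under 0.05 in limma (background 1.37%), and the median was -0.17 against -0.01 over all tested genes. Over 62 other focal adhesion genes the median was -0.07. Library 8 enters the stiff group here. Without libraries 3, 7 and 8 the members with a lower mean on 308 kPa were 8 of 10 and their median was -0.10, with 0.07 for Parva. With the block on runs, Pxn (unadjusted p 0.0192), Ilk (0.0302) and Vasp (0.0444) were under 0.05, as were 5.37% of all genes, with an adjusted p of 0.781 or more for every member in limma.

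In SUN1L cells the same contrast of rigidity gave 8 members with negative log2 fold changes and groups that overlapped for all 10. Negative values were also found for 8389 of the 16021 tested genes and 41 of 62 other focal adhesion genes. Among members, the values of largest size were -0.28 for Bcar1 (SE 0.14), -0.24 for Pxn (SE 0.16) and -0.21 for Vasp (SE 0.11). Parva, at 0.12 (SE 0.28), had the most positive one. None of the members was called (background 0%), had an unadjusted p under 0.05 (background 1.93%) or had groups that do not overlap (background 4.77%). The median was -0.11 over members, -0.06 over 62 other focal adhesion genes and -0.01 over all tested genes. With the block, Vasp (0.0187) and Pxn (0.0338) had an unadjusted p under 0.05 in limma, as had 5.52% of all genes.

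The interaction asks whether the response to rigidity differed between SUN1L and KDEL cells. For no member was it called (background 0%) or under an unadjusted p of 0.05 (background 0.905%) in limma. It was 0.31 for Ilk (SE 0.36) and 0.31 for Parva (SE 0.40) on the log2 scale, and for the other 8 members it lay between -0.13 and 0.12. The intervals of Ilk and Parva reach beyond 2-fold, so a difference of that size was not excluded in these genes. With the block on runs the intervals were -0.31 to 0.94 for Ilk and -0.28 to 0.90 for Parva, within 2-fold. Without libraries 3, 7 and 8 they were -0.60 to 1.29 for Ilk and -0.26 to 0.42 for Parva. For Ptk2 the ratio of responses was 1.07, with a 95% interval of 0.836 to 1.37.

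**Figure D3:**
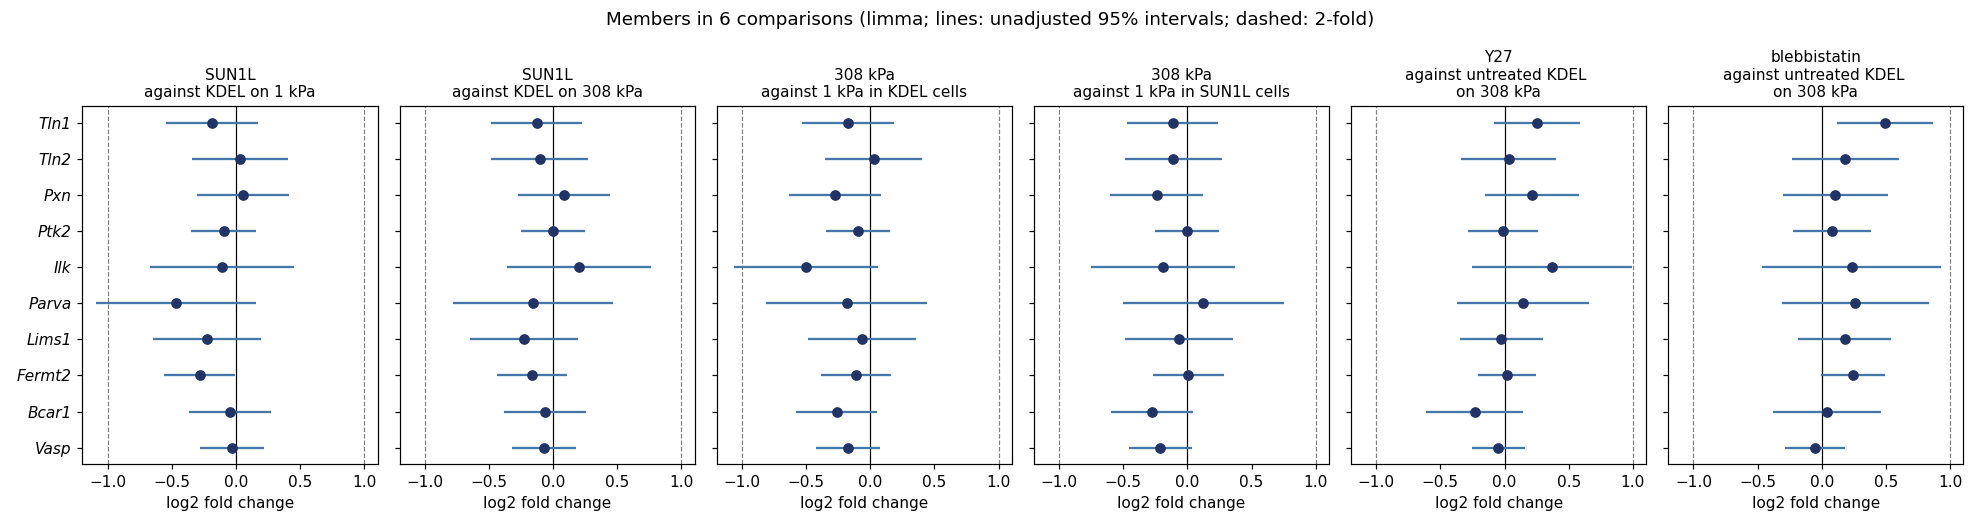
Log2 fold change of each member in 6 comparisons from limma, with unadjusted 95% intervals as lines and 2-fold marked by dashed lines. Except for Fermt2 in SUN1L cells on 1 kPa and Tln1 with blebbistatin, all intervals cross 0, and those of Parva and Ilk are among the widest.

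Y27 and blebbistatin were compared with untreated KDEL cells on 308 kPa, the same 3 control libraries that enter the comparisons of SUN1L and of rigidity. With Y27, the signal of Tln1 was 12262, 11161 and 9865 against 7782, 10289 and 10009 without it, a log2 fold change of 0.25 (SE 0.14). The groups overlap, and the lowest control is library 8. Ilk had a log2 fold change of 0.37 (SE 0.26), Pxn of 0.22 (SE 0.15) and Bcar1 of -0.23 (SE 0.16). None of the 10 members was called with Y27 (background 0%), had an unadjusted p under 0.05 in limma (background 5.8%) or had groups that do not overlap (background 8.57%). The member median was 0.03, near the 0.01 over all tested genes.

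With blebbistatin, Tln1 was higher than in any other library of the series. It was 13143 and 13023 with the inhibitor and at most 10289 in the untreated KDEL cells on 308 kPa. The fold was 1.41 (95% interval 1.09 to 1.83), the unadjusted p from limma 0.0172 and the adjusted p 1. Without libraries 3, 7 and 8, the log2 fold change of Tln1 fell from 0.49 (SE 0.16) to 0.37 (SE 0.12), with an unadjusted p in limma of 0.0230 and an adjusted p of 0.971. Fermt2, the partner of talin at the integrin tail, was 4256 and 4095 with blebbistatin and 3436, 3782 and 3381 without it, with groups that do not overlap (log2 fold change 0.24, SE 0.10, unadjusted p in limma 0.0556). Lims1 was 4961 and 4753 against 4479, 4731 and 3718, also without overlap.

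With blebbistatin 9 of the 10 members had positive log2 fold changes, Vasp at -0.05 being the exception. So had 7947 of the 16021 tested genes and 46 of 62 other focal adhesion genes. No member was called (background 0%). The unadjusted p was under 0.05 for Tln1 alone, against 3.04% of all genes, and 3 members had groups that do not overlap, against 13% of all genes. The median was 0.18 over members, 0.125 over 62 other focal adhesion genes and 0.00 over all tested genes. Without libraries 3, 7 and 8, of which library 8 is a control here, 7 of 10 members were positive, the median was 0.08, and Pxn had -0.02 and Bcar1 -0.01. With the block on runs 8 were positive and the median was 0.13. With only 2 libraries against 3, the smallest p that an exact permutation test allows for 1 gene is 0.2, and with 3 against 3 it is 0.1. When library 34 was counted as a blebbistatin library, Tln1 had a log2 fold change of 0.44 (unadjusted p in limma 0.0131).

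For 3 members, libraries 3, 7 and 8 lay below every other untreated library, whatever its group. Parva, the actin-binding parvin, was 5236, 5501 and 6179 in these libraries and 8333 to 11063 in the other 9 untreated libraries. Tln1 was 7942, 7325 and 7782, against 8887 to 11749. Ptk2 was 3264, 3417 and 3303, against 3553 to 4111. No member lay above the other 9 in all of libraries 3, 7 and 8. Of all tested genes, 15.3% lay below and 11.01% above. The other members overlapped, and Lims1 had a mean log2 signal 0.08 higher in the 3 libraries.

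Parva followed the division genes most closely when libraries 3, 7 and 8 were included. Across 17 libraries its log2 signal had a Pearson correlation of 0.96 with the mean log2 signal of the 10 division genes, and Tln1 had 0.71 and Ptk2 0.69. Over the 14 libraries without 3, 7 and 8 the correlation was 0.46 for Parva, -0.21 for Tln1 and 0.17 for Ptk2. It was larger in size, and negative, for Tln2 (-0.72) and Pxn (-0.53), which had 0.29 and 0.58 over 17 libraries. These points share libraries and depth, so the correlations are descriptions. The actin crosslinker Actn1 (10576 to 12050 against 20691 to 25650) and the talin partner Vcl (7094 to 7659 against 7904 to 15490) were also lower in libraries 3, 7 and 8 than in the other 9. The filamin Flnc (33554 to 47102 against at most 32222) and the adaptor Crkl (3940 to 4063 against at most 3564) were higher there. Of the 62 other focal adhesion genes tested, 16 (25.8%) lay below the other 9 libraries and 4 (6.45%) above. The part of cell division in these values was not tested.

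**Figure D4:**
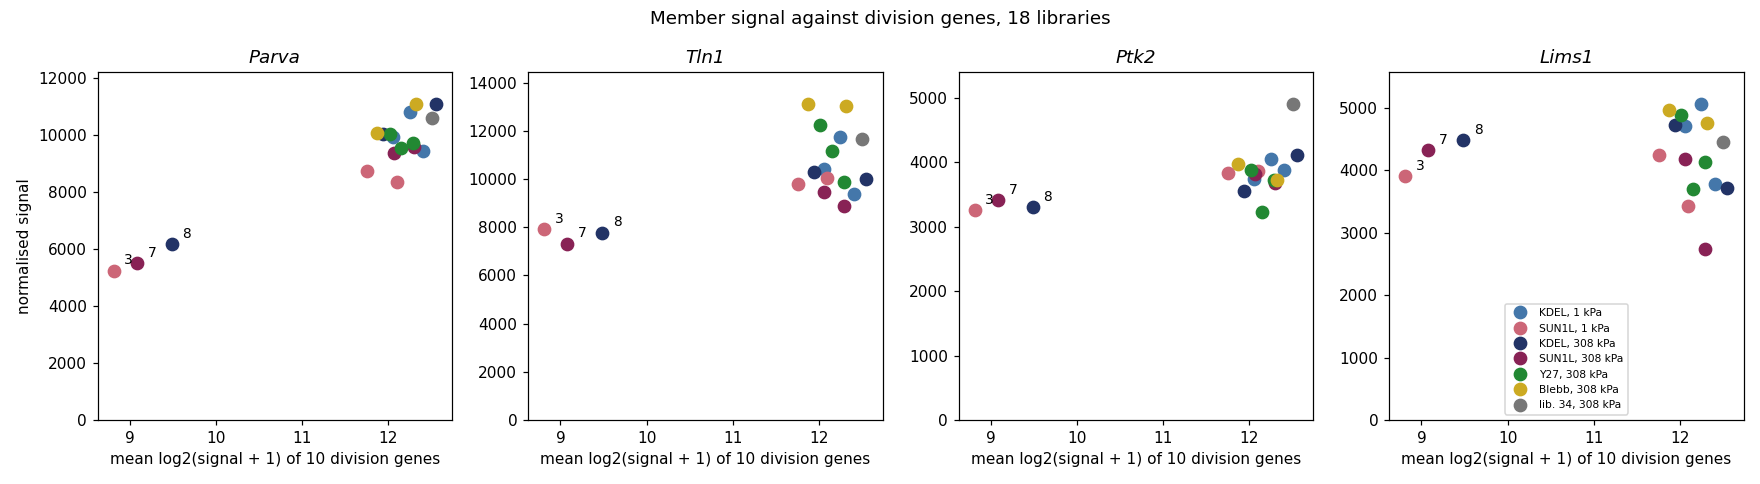
Signal of Parva, Tln1, Ptk2 and Lims1 (y axes from 0) against the mean log2(signal + 1) of 10 genes of dividing cells in 18 libraries, coloured by group. Libraries 3, 7 and 8 lie at 8.81 to 9.49 on the x axis, apart from the rest at 11.76 to 12.55, and are low for Parva, Tln1 and Ptk2 but not for Lims1.

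Other members varied with the run of library numbers, which forms 3 series (3 to 12, 15 to 24 and 27 to 36) with no meaning given in the labels. For Tln2, 69.4% of the sum of squares of log2 signal lay between runs and 18.98% between groups, and for Lims1 51.4% and 33.1%. Tln2 was 4152 to 4592 in the second run, 3312 to 4160 in the first and 3160 to 3821 in the third. Lims1 was 2733 to 4129 in the third run and 3705 to 5072 in the others. For Tln1 the order was the opposite, with 7.34% between runs and 64.2% between groups. The median share between groups was 38.0% for members and 28.2% for all tested genes, and between runs 25.5% and 29.5%. With 6 groups and 17 libraries, part of each share arises from the number of groups alone.

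**Figure D5:**
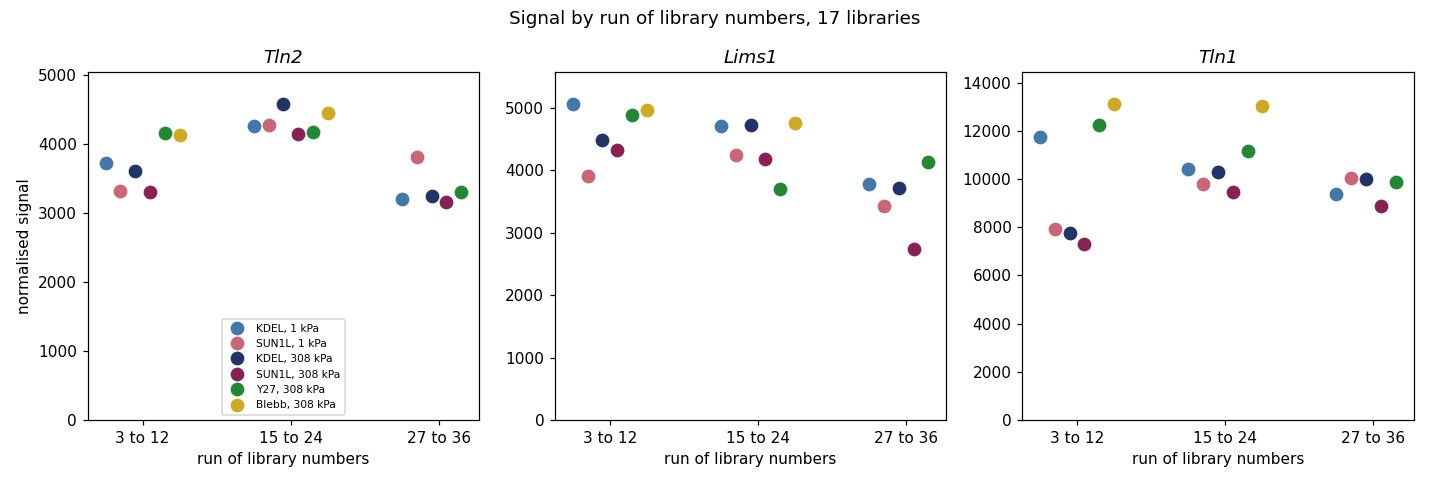
Signal of Tln2, Lims1 and Tln1 (y axes from 0) in 17 libraries by run of library numbers, coloured by group. Tln2 is highest in the run 15 to 24 (4152 to 4592), Lims1 is lowest in the run 27 to 36 (2733 to 4129), and Tln1 separates more by group than by run.

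Members did not rise and fall as a single block. Over 17 libraries the 45 pairs had a median Pearson correlation of 0.36, ranging from -0.41 for Ilk with Lims1 to 0.87 for Lims1 with Fermt2, and 37 were above 0. Without libraries 3, 7 and 8 the median was 0.03, and 24 of 45 were above 0. Lims1 with Fermt2 had 0.96 over those 14 libraries, Tln1 with Fermt2 0.83 and Bcar1 with Vasp 0.73. At the other end, Pxn with Parva had -0.67. Outside the list, among 8001 genes considered, Gatad2a (0.94), Med15 (0.94), Ephb2 (0.91), Mical2 (0.91) and Clip1 (0.90) had the highest correlations with the mean standardised level of the members over 17 libraries.

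Other focal adhesion genes, 62 of them tested, also gave no call. With Y27, 6 of them (9.68%) had an unadjusted p under 0.05 in limma, against the 5.8% of all genes. The vinexin gene Sorbs3 was 4028, 4800 and 3262 with Y27 and 2372, 2287 and 2698 without it (log2 fold change 0.70, SE 0.15, adjusted p 0.793), and the talin-binding Kank2 had a log2 fold change of 0.40 (SE 0.11). Nck2 had 0.27, while Arhgap35, the gene of p190RhoGAP, had -0.38 and the kinase Pak2 -0.24. In each of the other comparisons at most 1 of the 62 was under 0.05. These were Pak1 for SUN1L on 1 kPa (-0.54, SE 0.20), Pdlim7 for rigidity in KDEL cells (-0.41, SE 0.15) and Efs for rigidity in SUN1L cells (-1.25, SE 0.43) and for blebbistatin (-1.84, SE 0.33). Efs, a relative of p130Cas, was 1 to 11.9 in the 17 libraries and rests on a few read pairs. No such gene was found for SUN1L on 308 kPa or for the interaction.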

How the data were processed

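Poly(A) RNA was sequenced with paired 50-bp reads. The authors aligned the reads with TopHat, filtered them by quality and duplicates, quantified genes in AvadisNGS and scaled libraries by TMM (trimmed means of M-values). The table they deposited gives 1 linear signal value per gene and library, with values under 1 set to 1. TopHat2 2.0 and mm9 are named in the submitters' processing notes. However, 97.5% of 20148 matched genes have a start or an end within 1000 bases of that in RefSeq GRCm38.p6. Positions are therefore given on GRCm38. Low values were whole multiples of 1 read pair (tolerance 0.02) in only 36.3% to 39.6% of cases, so whole reads were not recovered and no count test was used. A read pair is worth 1.70 to 2.49 signal units, which limits low genes. There were 0 unused columns of values per library, and the microRNA libraries were not analysed here.

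The test was that of limma (version 3.58.1, R version 4.3.3), two-sided and with a trended prior, on log2(signal + 1) of genes that exceeded the table's lowest value in 3 or more of the 18 libraries. The rigidity and SUN1L comparisons used 12 libraries and the inhibitors 8. Intervals are unadjusted, and p-values were adjusted over all 16021 tested genes. The fit was also run on simulated data with planted differences, whose noise was independent between libraries. Those data cannot show how the fit behaves where libraries of a run deviate together, as they do here. Exon lengths and overlaps come from GENCODE M1 on NCBIM37 and gene positions from the table. The members, the lists, the libraries that stand apart and the tests were chosen with earlier results of these data known. The text names all members, 12 paralogs, up to 5 other focal adhesion genes per comparison by the smallest unadjusted p under 0.05, Sun1 and the 5 genes most like the members; Vcl, Actn1, Flnc, Crkl, Rrp8, Taf10 and Creb3 were named after their values were seen. In each comparison of 3 pairs, the libraries of a run deviated together (correlation of deviations from the group means 0.104 to 0.673 in every pair), so the fit with the run as a block is given beside counts that it moves. The labels do not say what a run is. The alternatives were other filters, pseudocounts of 0.1 and 8, quantile normalisation, 1 fit over all 18 libraries, limma with no trend, an ordinary linear model, a z-test of proportions, the adjusted p alone, library 34 counted with either inhibitor, and libraries left out.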

Additional observations from a re-analysis of the deposited data

Results flagged for a closer look

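Library 34, which carries an empty vector and contradictory inhibitor labels, was outside all comparisons and had signals above the 3 untreated KDEL libraries on 308 kPa for 2 of the 10 members and below them for 1. Of all tested genes, 21.5% lay above and 19.5% below. Ptk2 was 4916 there, the highest of the 18 libraries, against 3303 to 4111 in the untreated KDEL libraries and at most 3973 with either inhibitor. Tln1 was 11650, above the untreated range of 7782 to 10289, inside the Y27 range of 9865 to 12262 and below the blebbistatin values of 13023 and 13143. Ilk was 51.0, the lowest of the 18 libraries, against 53.1 to 72.3. Since the vector differs from that of every other library and the inhibitor is not settled, the vector, the inhibitor and the library cannot be told apart.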

How the results depend on the processing

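No member was called under any of the 127 alternatives to the 7 comparisons, the z-test of proportions and the ordinary linear model included. The z-test, which sums the signal of each group, treats it as counts and ignores the spread between libraries, gave 6 to 10 members an unadjusted p under 0.05 in the 6 comparisons of groups, along with 7519 to 9458 of the 16021 genes, but none of these members reached the 2-fold difference that a call needs; with the other alternatives the number was 0 to 3. The median log2 fold change of the members ranged, with 1 library left out in turn, from -0.14 to -0.03 for SUN1L on 1 kPa, -0.15 to 0.02 for SUN1L on 308 kPa, -0.23 to -0.10 for rigidity in KDEL cells, -0.21 to -0.04 for rigidity in SUN1L cells, -0.02 to 0.12 for the interaction, -0.02 to 0.12 for Y27 and 0.08 to 0.24 for blebbistatin. The medians of Y27 and of the interaction, close to 0, also turned negative under quantile normalisation (-0.004 and -0.01) and without libraries 3, 7 and 8 (under 0.01 in size for Y27 and -0.03 for the interaction), and that of SUN1L on 308 kPa turned positive without library 7. Of 1070 alternative values of single members, 90 changed sign, 70 of them with a library left out, and none of these had a log2 fold change above 0.23 in size as reported. With the replicate block on runs of library numbers, the member medians kept their sign (0.13 for blebbistatin) and 0 members were called, while the number of genes with an unadjusted p under 0.05 in limma went from 727 to 2259 for SUN1L on 1 kPa, from 406 to 949 for SUN1L on 308 kPa, from 219 to 861 for rigidity in KDEL cells, from 310 to 884 for rigidity in SUN1L cells, from 145 to 333 for the interaction, from 929 to 1362 for Y27 and from 487 to 692 for blebbistatin. Counting library 34 as Y27 put Fermt2 beside Tln1 under an unadjusted p of 0.05 for blebbistatin (0.0421, limma). Ilk, with 23.1 to 52.7 read pairs per library, is the member that depth limits most.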

Other observations

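The ratio of Bcar1 to Pxn signal was 0.89 to 1.03 in the 3 Y27 libraries and 1.11 to 1.43 in the 3 untreated KDEL libraries on 308 kPa, with no overlap; it was 1.12 and 1.35 with blebbistatin. Of the 45 ratios of member pairs, 5 (11.1%) had groups that do not overlap for Y27, and in the other 5 comparisons of groups 2 to 9 had. These ratios reuse the same 10 genes, and no such share was taken over pairs of other genes. The ratio of Bcar1 to Pxn was chosen after its values were seen, and with 3 libraries against 3 an exact permutation test cannot go below p = 0.1. Parvb, the paralog of Parva, was 653 to 1309 in libraries 3, 7 and 8 and 2033 to 3466 in the other 9 untreated libraries. Parvg, the third parvin, was 51.5, 28.6 and 66.4 in libraries 3, 7 and 8 and 2.05 to 24.7 in the other 9. Parvb was also 897 and 1331 in the Y27 and blebbistatin libraries of the same run, 12 and 10, whose division genes and Parva were at the level of the remaining libraries. Library 4, untreated and of that run, had 2033. In the other runs Parvb was 1896 and 1754 with Y27 (24 and 36) and 2078 with blebbistatin (22). The untreated KDEL libraries on 308 kPa of those runs, 20 and 32, had 2743 and 2531. The part of the run and of the inhibitors in Parvb was not tested. On 1 kPa Parvg was 51.5, 10.3 and 14.8 in SUN1L cells and 8.88, 2.54 and 4.08 in KDEL cells, without overlap. Of the 62 other focal adhesion genes, 3 had groups without overlap that were higher in SUN1L cells there and 5 lower. Such groups were found for 14.5% of all tested genes. With 1.70 to 2.49 signal units per read pair, the low Parvg values rest on a few read pairs.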
